A study of Rattus norvegicus with 34 samples.

Results

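The 10 genes followed here were grouped under the actin cytoskeleton and read in the ageing rat liver. They were Actg1, Actb, Pfn1, Cfl1, Arpc1b, Arpc2, Coro1a, Arhgdib, Clic1 and Anxa3. The name is a label for the list, and for Arhgdib, Clic1 and Anxa3 no part in actin filaments is described below. Arrays of Brown Norway livers held 11986 genes with a signal, and those of F344 livers 11945. The 10 were listed by symbol, and several were chosen by their signal, which was higher at 24 months in both strains, so the contrasts of 24 against 4 months in Brown Norway controls and of 24 against 6 months in F344 rats are given as descriptions, without a test. The same holds for every contrast that shares arrays with those 2. Tests on these genes compared only groups outside those 2 contrasts, but took their spread from all arrays of the strain. Arrays of those 2 contrasts were therefore part of the spread in each test. The tests compared toluene-dosed Brown Norway rats among themselves, dosed with control rats at 12 months, and F344 rats of 18 with 11 months. Earlier results of these data were known when the genes were chosen, so these groups may not be fully independent of the choice.

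Each of the 34 arrays, of an Affymetrix rat design, read the liver RNA of 1 male animal. Brown Norway rats are an inbred strain, and each was caged alone. At ages of 4, 12 and 24 months, 3 animals were given 1 g/kg toluene, dissolved in corn oil and delivered by gavage, with necropsy after 4 h, and 3 served as controls labelled as having no treatment. Toluene, corn oil and gavage therefore cannot be told apart. F344 rats, another inbred strain, were 6, 11, 18 or 24 months old, 4 at each age, undosed, and had been kept by their supplier until 1 week before necropsy.

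Actin monomers assemble into filaments that shape a cell, carry its organelles and drive its movement. Profilin delivers monomers to growing ends, the Arp2/3 complex starts branches on existing filaments, and cofilin cuts old filaments apart. In the liver, actin lines the bile canaliculi of hepatocytes, while Kupffer cells, other leukocytes and stellate cells use it for engulfment, crawling and contraction. All these cells are in the tissue that was measured, and more cells of a type cannot be told apart from more RNA per cell.

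All 10 genes passed the filter on low signals in both strains. Actb and Cfl1 were measured only by probe sets annotated to more than 1 gene. The probe set used for Actb is annotated to Actb, Actg1 and Actg1l1 and was designed from the Actb transcript. The probe set for Cfl1 is annotated to Cfl1 and Cfl1l1. Both are called joint probe sets below, and the other 8 genes each had a probe set of their own.

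In Brown Norway controls of 24 months all 10 genes had a higher mean log2 signal than at 4 months, with a median difference of 0.61 on the log2 scale (range 0.24 to 1.26) against 0.00 over all genes tested. For 5 of them (Actg1, Arpc1b, Arhgdib, Clic1 and Anxa3) every 24-month control lay above every 4-month control, as did 6.72% of all 8586 genes tested. This count belongs to the contrast that chose the genes and is read as a description. Replicate 1 of the 24-month controls had the highest signal of its group for 9 of the 10 genes, and without it the median difference was 0.36. Toluene-dosed rats were outside the contrast that chose the genes. Their median difference between 24 and 4 months was 0.13 (range -0.06 to 0.25), and none of the 10 genes passed.

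Actg1 encodes gamma-actin, which with beta-actin forms the filaments of non-muscle cells. Its signals at 24 months were 3703, 3789.6 and 3507 in dosed Brown Norway rats and 4323, 5364 and 3294 in controls, against 3171, 3038 and 3169.6 in dosed rats and 2603, 2263 and 2311 in controls at 4 months. At both ages the groups of dosed rats spread less than the 24-month controls, and old animals lay above young ones with either treatment. At 4 months every dosed rat lay above every control (log2 difference 0.39, SE 0.17), which held for 3.87% of all genes and for no other gene of the 10. Between 24 and 4 months the log2 difference was 0.23 in dosed rats (SE 0.17, n = 3 a group, limma adjusted p = 1) and 0.83 in controls (SE 0.17). Over the alternative ways of processing, the lowest limma adjusted p of that difference in dosed rats was 0.274. At 12 months the signals were 2633, 3469 and 3802 in dosed rats and 3085, 2326 and 2989.7 in controls, and the groups overlapped.

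In F344 rats Actg1 signals were 1242, 2251, 1319.7 and 1878 at 6 months, 1756, 1343, 1826 and 2106 at 11 months, 2015, 2688, 2369 and 1570.1 at 18 months, and 3173, 3007, 2788 and 2350.1 at 24 months. Every 24-month rat lay above every 6-month rat, while the 18-month and 11-month groups overlapped. On the log2 scale 24-month rats exceeded 6-month rats by 0.79 (SE 0.20), and 18-month exceeded 11-month rats by 0.29 (SE 0.20, limma adjusted p = 0.674).

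Serum response factor, whose cofactor is held back by free actin monomers, binds the CArG box, and actin genes are among its known targets. The 250 bases before the annotated start were available from RefSeq (build GRCr8) for 7 of the 10 genes, and the CArG box was searched there by its 10-base consensus, which reads alike on both strands. It was found in Actg1 alone of the 7, with its first base 90 bases before the start, and in 1.5% of all 33469 promoters of that length. Actb, Arhgdib and Clic1 had no stretch available and were not searched. Actg1 lies on the minus strand and its stretch is chr10:106120952-106121201. That stretch is shown 5′ to 3′ with the CArG box in capitals, the only such match among the 7 genes searched.
Actg1: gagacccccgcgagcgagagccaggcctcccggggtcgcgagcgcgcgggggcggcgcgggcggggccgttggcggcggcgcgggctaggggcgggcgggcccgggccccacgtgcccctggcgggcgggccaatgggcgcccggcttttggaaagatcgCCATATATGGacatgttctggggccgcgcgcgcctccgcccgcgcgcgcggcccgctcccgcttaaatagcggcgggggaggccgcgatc
Both the motif and the sequences were chosen with the sequences in view, and a match describes letters and not binding. No value here measures the activity of the factor, and the Srf signals that follow, named after they were seen, do not either. Srf itself had a log2 difference of -0.12 between 24 and 6 months in F344 rats (limma adjusted p = 0.562) and of -0.19 between 24 and 4 months in dosed Brown Norway rats (limma adjusted p = 1).

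The joint probe set of Actb read 3815, 3505 and 2921 in dosed Brown Norway rats and 5336, 4646 and 3207 in controls at 24 months, against 3147, 3186 and 3045 in dosed rats and 3403, 2681 and 3120.2 in controls at 4 months. The groups of both ages overlapped with either treatment. Old dosed rats differed from young ones by 0.12 on the log2 scale (SE 0.19, limma adjusted p = 1), and old controls from young ones by 0.49 (SE 0.19). In F344 rats it read 3279, 1599, 1327 and 2377 at 6 months, 2459, 3620.0, 2635 and 2165 at 11 months, 3097, 2127, 2729 and 1943 at 18 months, and 2748, 2190.3, 3465 and 2767 at 24 months. No pair of F344 ages was separate, and this was the only one of the 10 genes with a lower mean at 18 than at 11 months (log2 difference -0.13, SE 0.25, limma adjusted p = 0.915).

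The array's own beta-actin controls, which are outside the 10 genes and read the 5′ end, the middle and the 3′ end of the transcript, gave log2 differences between 24 and 4 months of -0.06, 0.11 and 0.05 in dosed Brown Norway rats and of 1.07, 0.81 and 0.73 in controls. Between 24 and 6 months in F344 rats they gave 0.73, 0.98 and 0.66. At 6 months 2 of the 4 arrays had a GAPDH 3′ to 5′ ratio above 2.5, a measure of RNA quality, against 0 at 24 months. On those 2 the 5′ control read 69.8 and 78.2, against 97.2 and 193 on the other 6-month arrays. Their 3′ control read 938 and 549, against 780 and 1197. The part of RNA quality in the differences of these controls was not tested. A second joint probe set of Actb gave 0.06 in dosed rats, 0.59 in controls and 0.80 in F344 rats.

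**Figure D1:**
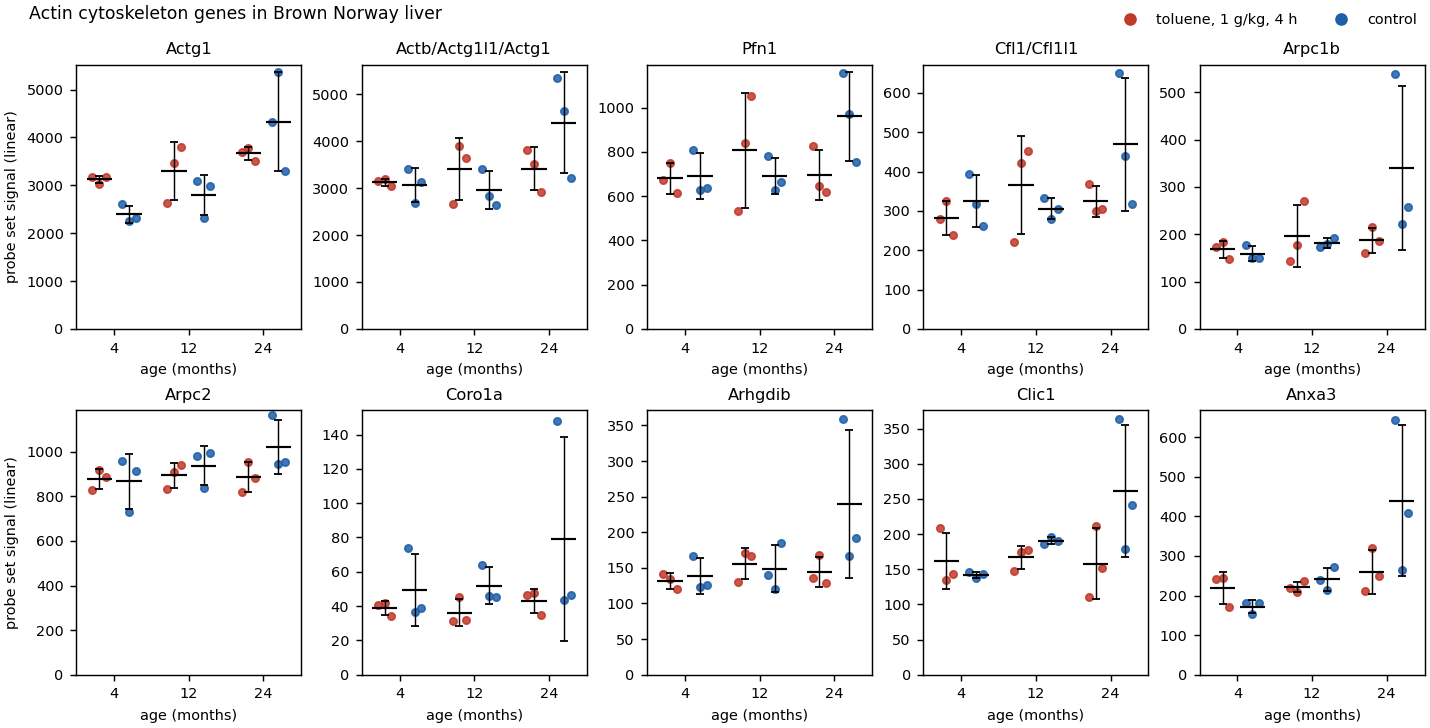
Probe set signal (linear scale) of the 10 genes in Brown Norway liver by age in months, for toluene-dosed rats (red, left at each age) and controls (blue, right). Points are animals, horizontal lines are means and bars are SD (n = 3). The 24-month controls have the largest SD except for Pfn1, where the 12-month dosed rats have it. Among the 24-month controls 1 animal is highest for 9 of the 10 genes.

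Profilin, the product of Pfn1, and cofilin, the product of Cfl1, supply and dismantle filaments. Pfn1 signals were 825, 644 and 618 in dosed Brown Norway rats and 1156, 973 and 754 in controls at 24 months, against 674, 751 and 614 in dosed rats and 809, 626 and 634 in controls at 4 months. The ages overlapped with either treatment, and the log2 difference was 0.03 in dosed rats (SE 0.22, limma adjusted p = 1) and 0.47 in controls (SE 0.22). In F344 rats Pfn1 averaged 388 ± 93.8 at 6 months, 464 ± 152 at 11, 522 ± 169.7 at 18 and 453 ± 87.0 at 24 months (SD, n = 4), with all ages overlapping.

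The joint probe set of Cfl1 read 368, 299.5 and 304 in dosed rats and 650.1, 439.7 and 317 in controls at 24 months, against 280.3, 325 and 239.6 in dosed rats and 394, 316 and 263 in controls at 4 months. Here too the ages overlapped, with a log2 difference of 0.21 in dosed rats (SE 0.27, limma adjusted p = 1) and of 0.49 in controls (SE 0.27), which was 0.22 without replicate 1 and 0.74 without replicate 3 of the 24-month controls. Its F344 means were 144 ± 27.6 at 6 months, 197 ± 52.8 at 11, 219 ± 68.4 at 18 and 209 ± 51.7 at 24 months (SD, n = 4), and the 24-month and 6-month groups overlapped.

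Arpc1b and Arpc2 encode subunits of the Arp2/3 complex, Arpc1b being the form of its subunit that is abundant in human blood cells. Arpc1b signals were 161, 215 and 186 in dosed Brown Norway rats and 538, 222 and 258 in controls at 24 months, against 172, 183 and 147 in dosed rats and 178, 151 and 149 in controls at 4 months. All old controls lay above all young ones, while the dosed groups overlapped. The log2 difference was 0.15 in dosed rats (SE 0.27, limma adjusted p = 1), with a 95% interval of -0.43 to 0.73, and 0.98 in controls (SE 0.27), or 0.59 without replicate 1 of the 24-month controls.

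In F344 rats Arpc1b signals were 233, 235, 211 and 229 at 6 months, 162, 224, 236 and 242 at 11 months, 313, 387, 414 and 279 at 18 months, and 478, 349, 383 and 366 at 24 months. The 6-month and 11-month rats overlapped, and every rat of 18 or 24 months lay above every rat of 6 or 11 months. The step from 11 to 18 months was 1.61-fold (log2 difference 0.69, SE 0.15, limma adjusted p = 0.073), the lowest adjusted p of the 10 genes in that comparison and above the threshold of 0.05. It passed without replicate 4 of the 18-month rats, with array weights and with the GAPDH ratio as a covariate.

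Arpc2 had the smallest differences of the 10 genes in both contrasts that chose them. Its signals were 822, 955 and 884 in dosed Brown Norway rats and 1164, 945 and 955 in controls at 24 months, against 829, 917 and 886 in dosed rats and 958, 728 and 915 in controls at 4 months. Between the ages Arpc2 differed by 0.01 on the log2 scale in dosed rats (SE 0.13, limma adjusted p = 1) and by 0.24 in controls (SE 0.13), which was 0.14 without replicate 1 of the 24-month controls and 0.12 without replicate 2 of the 4-month controls. In F344 rats its means lay between 942 ± 121 at 6 months and 1082 ± 116 at 18 months (SD, n = 4), with all ages overlapping. A second probe set of Arpc2 gave a log2 difference of 0.70 between 24 and 6 months, against 0.16 for the first, so the 2 probe sets disagree in size in F344 rats.

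A sequence AGGAAGTG, which holds the core bound by ETS-family factors such as the macrophage and B cell factor PU.1, was searched on both strands of the same 7 stretches and does not overlap the CArG match. It was found in Arpc1b and Pfn1, in both cases on the strand of the gene, and in 2.87% of the 33469 promoters. The Arpc1b match starts 15 bases before the annotated start, in chr12:14609489-14609738 (minus strand), and the Pfn1 match 37 bases before it, in chr10:55866588-55866837 (minus strand). Both stretches are shown with the match in capitals, since of the 7 genes searched they are the ones that hold it.
Arpc1b: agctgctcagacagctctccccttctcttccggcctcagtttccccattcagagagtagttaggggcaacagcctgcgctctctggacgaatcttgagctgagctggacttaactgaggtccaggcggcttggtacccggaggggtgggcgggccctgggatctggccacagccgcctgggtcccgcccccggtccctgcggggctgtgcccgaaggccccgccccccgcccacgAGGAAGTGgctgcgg
Pfn1: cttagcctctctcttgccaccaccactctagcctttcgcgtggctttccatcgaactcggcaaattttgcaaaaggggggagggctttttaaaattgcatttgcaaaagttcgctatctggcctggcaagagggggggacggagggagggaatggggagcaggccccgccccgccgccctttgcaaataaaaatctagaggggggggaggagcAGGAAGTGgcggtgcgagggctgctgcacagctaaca
The matches are a description of these letters and were not tested against any signal.

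Coro1a encodes coronin 1A, an actin-binding protein found mainly in leukocytes, and Arhgdib encodes a protein abundant in blood cells. Coro1a signals were 46.2, 47.8 and 34.9 in dosed Brown Norway rats and 148, 43.3 and 46.3 in controls at 24 months, against 40.5, 41.9 and 34.1 in dosed rats and 73.7, 36.3 and 38.6 in controls at 4 months. One animal at each age of controls, replicate 1, stood above the others and the ages overlapped. Coro1a differed between the ages by 0.14 on the log2 scale in dosed rats (SE 0.38, limma adjusted p = 1) and by 0.51 in controls (SE 0.38). Without replicate 1 of the 24-month controls Coro1a had a difference of -0.068, and leaving out other single controls gave 0.32 to 0.83. Many of its Brown Norway signals lay near the floor of 32, below which signals were set to 32.

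In F344 rats Coro1a signals were 75.0, 46.7, 54.4 and 64.7 at 6 months, 37.2, 81.3, 67.7 and 79.8 at 11 months, 111, 95.4, 111 and 94.4 at 18 months, and 235, 120.1, 113 and 118 at 24 months. The order of ages was complete from 11 months on: every 18-month rat lay above every younger rat and every 24-month rat above every 18-month rat. The last gap was small, with 113 as the lowest 24-month and 111 as the highest 18-month signal. The contrast of 24 with 18 months shares arrays with that which chose the genes, and no share over all genes is given for it. Its log2 difference was 1.23 (SE 0.25) for 24 against 6 months and 0.69 for 18 against 11 months (SE 0.25, limma adjusted p = 0.316).

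Arhgdib signals were 135, 168 and 128.1 in dosed Brown Norway rats and 359, 167 and 192 in controls at 24 months, against 141, 134 and 119.8 in dosed rats and 167, 123 and 125 in controls at 4 months. The lowest old control lay just above the highest young one, while the dosed groups overlapped. Arhgdib differed between the ages by 0.12 on the log2 scale in dosed rats (SE 0.24, limma adjusted p = 1) and by 0.72 in controls (SE 0.24), or 0.39 without replicate 1 of the 24-month controls. F344 means were 145 ± 8.97 at 6 months, 159.8 ± 45.9 at 11, 184 ± 36.9 at 18 and 229.9 ± 41.8 at 24 months (SD, n = 4), and all 24-month rats lay above all 6-month rats.

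Clic1 encodes a chloride intracellular channel protein, which moves between the cytosol and membranes, and Anxa3 encodes annexin A3, which binds membrane phospholipids in the presence of calcium. Clic1 signals were 111, 211 and 151 in dosed Brown Norway rats and 363, 178 and 242 in controls at 24 months, against 208, 135 and 144 in dosed rats and 145, 138 and 143 in controls at 4 months. The dosed groups overlapped and the control groups did not. The log2 difference was -0.06 in dosed rats (SE 0.24, limma adjusted p = 1) and 0.82 in controls (SE 0.24). In F344 rats Clic1 signals were 182, 155, 172 and 209 at 6 months, 185, 215, 173 and 231 at 11 months, 286, 267, 353 and 238 at 18 months, and 304, 239.7, 343.7 and 250.3 at 24 months. As with Arpc1b, all rats of 18 and 24 months lay above all younger ones, and the difference of 18 against 11 months was 0.50 (SE 0.15, limma adjusted p = 0.176).

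With its brightest probe set, Anxa3 had the largest difference of the 10 genes in Brown Norway controls, but not with its 4 probe sets averaged, 2 of which read under the floor on nearly all Brown Norway arrays. Its signals were 211, 321 and 249 in dosed rats and 643, 265 and 408 in controls at 24 months, against 241, 245 and 171 in dosed rats and 182, 153 and 182 in controls at 4 months. The log2 difference was 0.25 in dosed rats (SE 0.25, limma adjusted p = 1) and 1.26 in controls (SE 0.25), or 0.94 without replicate 1 of the 24-month controls. The average over its probe sets gave 0.55 in controls, and 0.51 for 24 against 6 months in F344 rats, where the brightest gave 0.84. A second Anxa3 probe set above the floor on every array gave 0.15 in dosed rats and 0.79 in controls. F344 signals were 210.1, 197, 201 and 256 at 6 months, 236, 297, 272 and 244 at 11 months, 370.1, 389, 439.6 and 259.7 at 18 months, and 336, 309, 364 and 574 at 24 months. All 24-month rats lay above all 6-month and 11-month rats, and the log2 difference of 18 against 11 months was 0.45 (SE 0.19, limma adjusted p = 0.391).

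**Figure D2:**
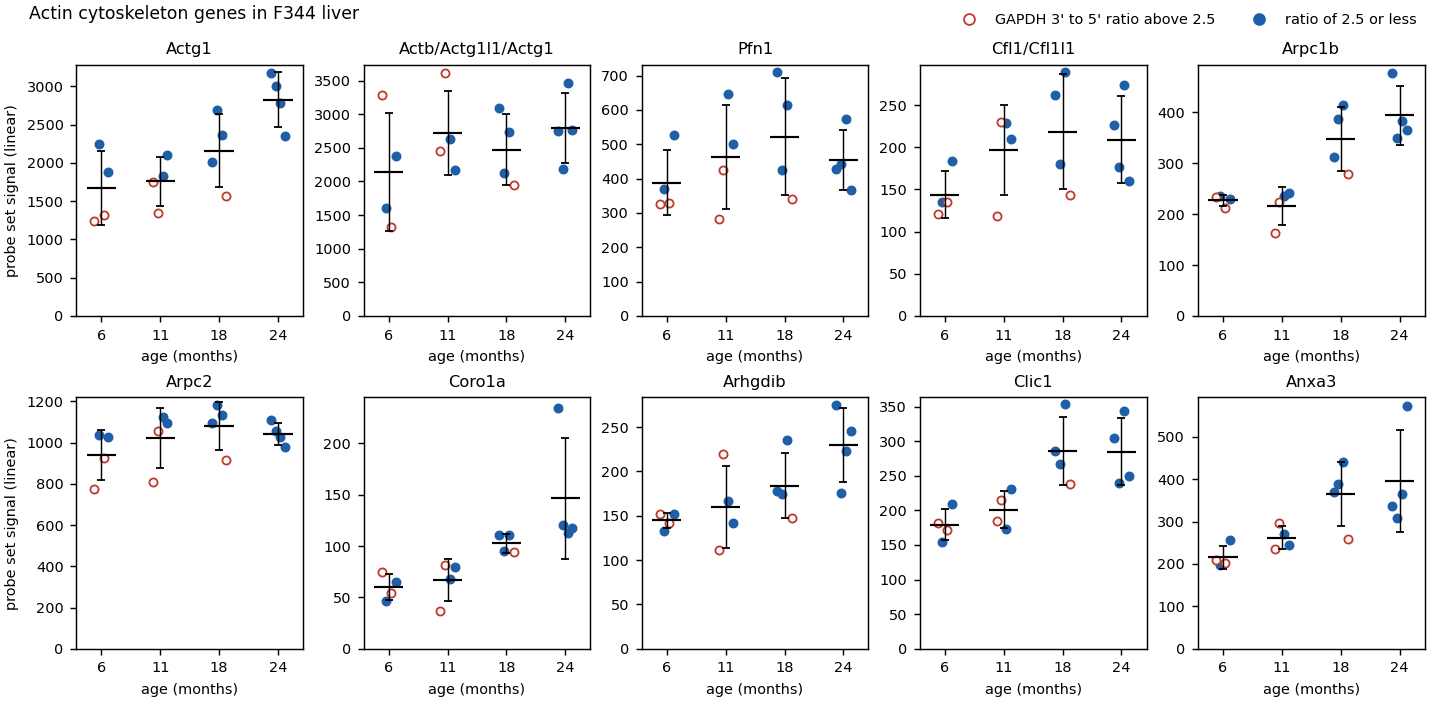
Probe set signal (linear scale) of the 10 genes in F344 liver by age in months. Points are animals, lines are means and bars are SD (n = 4), with open red points for arrays whose GAPDH 3′ to 5′ ratio was above 2.5. Arpc1b and Clic1 separate the 18-month and 24-month rats from all younger ones.

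Taken by comparison, the dosed Brown Norway rats gave 0 of 10 genes past limma's adjusted threshold for 24 against 4 months (background 0.268% of 8586 genes), 12 against 4 months (background 0%) and 24 against 12 months (background 0.0932%), with 0 of 10 at an unadjusted p under 0.05 in each, beside 5.51%, 2.46% and 3.25% of all genes. Medians of the log2 differences were 0.13, 0.08 and -0.02. For 24 against 4 months Actg1 was the only one of the 10 whose dosed groups did not overlap, beside 8.19% of all genes. The 95% intervals of that comparison were widest for Coro1a (-0.66 to 0.94) and narrowest for Arpc2 (-0.26 to 0.28). Each gene's SE is shared by all Brown Norway comparisons, so these intervals also carry the spread of the controls that chose the genes. For Coro1a the SD of the signal was 7.00 and 4.16 in dosed rats of 24 and 4 months, against 59.4 and 21.0 in controls. Differences inside these intervals could not be resolved by these fits, with 3 rats a group. Whether age differences differed between dosed and control rats was not tested, since the controls chose the genes.

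Dosed against control rats at 12 months gave 0 of 10 genes past limma's adjusted threshold (background 0.0349% of genes) and 0 at an unadjusted p under 0.05 (background 4.61%), with a median of 0.07. The largest difference was in Coro1a, with signals of 31.5, 45.2 and 31.8 in dosed rats and 64.2, 46.0 and 45.3 in controls (log2 difference -0.51, SE 0.38, limma adjusted p = 0.923). Clic1 read 148, 175 and 178 in dosed rats and 186, 196 and 190.0 in controls (log2 difference -0.20, SE 0.24). In Clic1 all dosed rats lay below all controls, and so they did in Coro1a, beside 4.08% of all genes. At 24 months all 10 genes were lower on average in dosed rats than in controls, by a median of -0.56 on the log2 scale, and at 4 months the median was 0.03. The mean level of the 10 genes, relative to the strain's mean, was 0.99 on replicate 1 of the 24-month controls. It was 0.25 and 0.20 on the other controls of that age, and -0.14 to 0.10 in dosed rats. No median of this difference is given without replicate 1. At 24 months Arpc1b was the only gene of the 10 in which all dosed rats lay below all controls, beside 8.09% of all genes. The 24-month comparison shares its control arrays with the contrast that chose the genes and has no test. In controls the median was 0.12 for 12 against 4 months and 0.55 for 24 against 12 months, where 2 of the 10 genes did not overlap (background 8.91%). Anxa3 read 219, 209 and 236 in dosed rats and 239, 213 and 271 in controls at 12 months, so that its 12-month controls already lay above all 4-month controls, as they did for Clic1 but for none of the other 8 genes (background 4.17%). Arpc1b read 143, 178 and 270.3 in dosed rats and 173, 179 and 193 in controls at 12 months, which overlapped with the 4-month groups.

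In F344 rats all 10 genes were higher on average at 24 than at 6 months, with a median log2 difference of 0.66 (range 0.16 to 1.23) against -0.01 over all genes. For 6 genes (Actg1, Arpc1b, Coro1a, Arhgdib, Clic1 and Anxa3) the groups did not overlap, as for 8.82% of 9208 genes, which again is how the genes were picked. The median was 0.14 for 11 against 6 months and 0.48 for 18 against 6 months, and 0.14 for 24 against 18 months. Without replicate 4 of the 18-month rats, whose GAPDH ratio is given below, the last of these was 0.0093. In 18 against 6 months 4 genes (Arpc1b, Coro1a, Clic1 and Anxa3) did not overlap, beside 4.24% of all genes, and in 24 against 11 months 5 did not, beside 6.48%. These contrasts share arrays with the one that chose the genes.

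The comparison of 18 with 11 months used groups outside the contrast that chose the genes. Of the 10 genes, 9 had a higher mean at 18 months, with a median log2 difference of 0.26 against -0.01 over all genes. None passed limma's adjusted threshold (background 0.293%), and 4 (Arpc1b, Clic1, Coro1a and Anxa3) had an unadjusted p under 0.05, as did 11.1% of all genes. For 3 of them, Arpc1b, Clic1 and Coro1a, every 18-month rat lay above every 11-month rat, against 2.4% of all genes. Replicate 4 of the 18-month rats had the lowest signal of its group for all 10 genes, and replicate 1 of the 11-month rats for 7.

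Those 2 arrays are among 5 F344 arrays with a GAPDH 3′ to 5′ ratio above 2.5, a measure of RNA quality, with ratios of 5.31 and 7.33. The others were 1 array of 11 months and 2 of 6 months, and none was of 24 months. Without the 5 arrays the median difference was 0.30 for 18 against 11 months and 0.57 for 24 against 6 months. For 24 against 6 months the value without them was 1.34 for Coro1a, 0.75 for Arpc1b and 0.77 for Anxa3, against 1.23, 0.79 and 0.84 with all arrays. It was 0.45 for Actg1, 0.02 for Pfn1 and 0.01 for Arpc2, against 0.79, 0.23 and 0.16 with all arrays. The part of RNA quality in these last differences was not tested further.

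**Figure D3:**
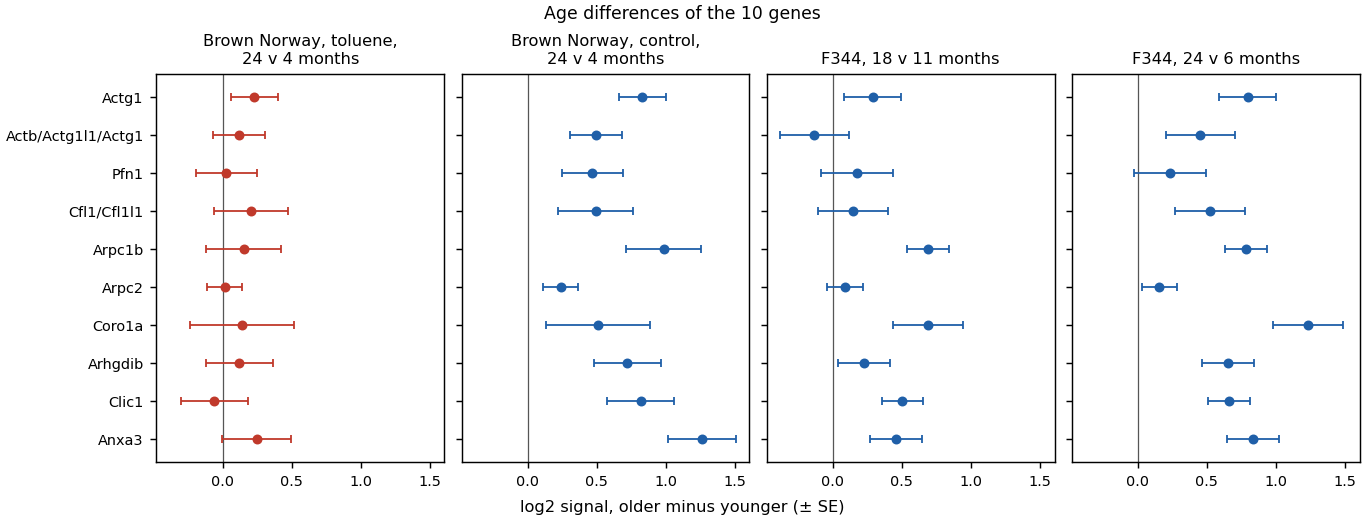
Differences in log2 signal (older minus younger, point and SE) of the 10 genes in 4 comparisons. The left panel holds dosed Brown Norway rats, whose values lie between -0.06 and 0.25, and the second the controls, which chose the genes together with the right panel.

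Markers of leukocytes were measured beside these genes. Marker lists, like the 10 genes, were chosen with earlier results of these data known. In Brown Norway rats 8 of 11 listed leukocyte genes were tested. Their mean level, relative to the strain's mean, ranged from -0.26 to 0.21 in dosed rats and from 0.14 to 1.63 in controls at 24 months, against -0.42 to -0.05 in dosed rats and -0.46 to -0.30 in controls at 4 months. The highest value was that of replicate 1 of the 24-month controls, the array on which 9 of the 10 actin genes were highest. The 10 macrophage genes tested of 13 listed had a median log2 difference between 24 and 4 months of 0.13 in dosed rats and 1.29 in controls, with 0 and 2 genes past limma's adjusted threshold (background 0.268% and 0.245%). At an unadjusted p under 0.05 the counts were 0 and 10 (background 5.51% and 11.7%). No leukocyte gene passed in either, and 0 and 7 of the 8 had an unadjusted p under 0.05.

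In F344 rats of 24 against 6 months, 6 of 10 leukocyte genes and 4 of 10 macrophage genes were higher past limma's adjusted threshold, beside 4.43% of all genes, with medians of 0.98 and 0.70. So were 2 of 2 neutrophil genes, 3 of 7 of T and NK cells, 1 of 3 of bile duct epithelium and 1 of 7 of stellate cells and fibroblasts, and 0 of 2 of red blood cells. The neutrophil level ranged from 0.09 to 1.01 at 24 months and from -0.89 to -0.66 at 6 months. The bile duct level ranged from 0.24 to 0.45 and from -0.57 to -0.27, and that of T and NK cells from 0.02 to 1.35 and from -0.39 to -0.21, at 24 and 6 months in turn. That of red blood cells overlapped, from -0.20 to 0.74 at 24 months and from -0.77 to 0.08 at 6 months. The leukocyte level ranged from -0.62 to -0.20 at 6 months, from -0.47 to 0.08 at 11, from 0.11 to 0.52 at 18 and from 0.18 to 0.68 at 24 months. Cd68, a lysosomal protein of macrophages, averaged 342 ± 54.6 at 24 months and 179 ± 29.5 at 6 months (SD, n = 4), and Ptprc, the CD45 antigen of all leukocytes, 232 ± 76.0 and 82.1 ± 16.4. In Brown Norway controls Cd68 averaged 360.0 ± 229 at 24 months and 111 ± 9.33 at 4 months, and Ptprc 86.0 ± 54.0 and 45.7 ± 12.5 (SD, n = 3). In these controls the level of 2 neutrophil genes overlapped. It ranged from -0.02 to 0.53 at 24 months and from -0.49 to 2.03, on replicate 2, at 4 months. That of stellate cells and fibroblasts overlapped too, from -0.54 to 0.12 and from -0.33 to -0.16 in turn. That of the 1 gene of B and plasma cells did not, from 0.57 to 1.07 and from -0.88 to -0.46 in turn. The level of 2 red blood cell genes in these controls ranged from -1.68, on replicate 1, to -0.14 at 24 months and from 0.16 to 0.36 at 4 months. In dosed rats it ranged from -0.04 to 0.59 and from 0.16 to 0.58 in turn. Replicate 3 of the 12-month dosed rats had the lowest level of the strain, -2.02.

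Hepatocyte markers had differences near 0. The 10 hepatocyte genes had a median log2 difference of -0.08 in dosed rats and -0.01 in controls for 24 against 4 months, and of -0.00139 in F344 rats for 24 against 6 months, and albumin (Alb) averaged 8338 ± 437 at 24 and 8164 ± 271 at 6 months. In F344 rats 1 of the 10 hepatocyte genes was lower past limma's adjusted threshold. Pecam1, of endothelium, averaged 52.9 ± 8.28 at 24 and 50.2 ± 2.62 at 6 months in F344 rats. The bile duct marker Krt19 was under the floor on every 4-month and 24-month Brown Norway array, and Col1a1, of fibroblasts, was under it on all 24-month ones. A pair of dosed arrays stood apart in the 8 stellate cell and fibroblast genes tested: replicate 1 of 4 months, with a level of 1.92, against -0.33 and -0.19 in the others of its group, and replicate 2 of 12 months, with 1.74, against -0.25 and -0.17. Without the first, the median of the 10 actin genes was 0.17 for 24 against 4 months and 0.15 for 12 against 4 months in dosed rats. Without the second it was 0.05 for 12 against 4 months, 0.01 for 24 against 12 months and 0.03 for dosed against control rats at 12 months, with 0 of 10 genes past limma's adjusted threshold in each of these 5 fits. The part of these cell types in the differences of the actin genes was not tested.

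**Figure D4:**
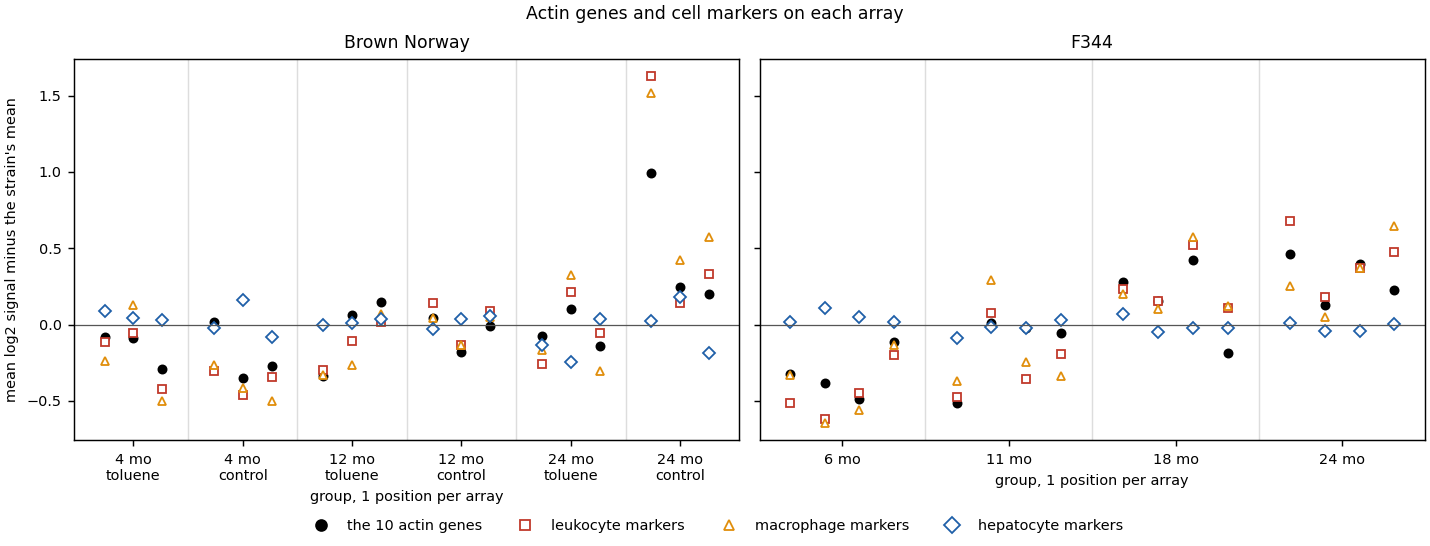
Mean log2 signal of the 10 actin genes and of leukocyte, macrophage and hepatocyte markers on every array, relative to the strain's mean, by group. Actin genes and leukocyte markers lie highest together on replicate 1 of the Brown Norway 24-month controls, where the leukocyte level was 1.63, while hepatocyte markers stay near 0.

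Other genes of the actin machinery were taken from a list of 154 that holds none of the 10, of which 107 were tested in F344 and 104 in Brown Norway rats. In F344 rats of 24 against 6 months 14 of 107 (13.1%) were higher and 0 lower past limma's adjusted threshold, beside 4.43% of all genes higher. The list was made with earlier results of these data known, and this contrast helped choose the 10 genes. Its counts and adjusted p-values are read as descriptions. So are those of Brown Norway controls of 24 against 4 months and of comparisons sharing arrays with either. The median log2 difference of the list was 0.20 against -0.01 over all genes. Leaving out replicate 1 of the 24-month rats or replicate 2 of the 6-month rats gave 9 each.

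By role, tropomyosin 4 (Tpm4), which coats filaments, averaged 461.9 ± 90.2 at 24 and 162 ± 40.6 at 6 months (2.89-fold, limma adjusted p = 0.000153). Tropomodulin 1 (Tmod1), which caps their slow ends, was under the floor on all 6-month arrays and averaged 66.0 ± 7.64 at 24 months, at least 2.05-fold higher (limma adjusted p = 0.000187). Plastin 2 (Lcp1), the filament bundler of leukocytes, averaged 288 ± 59.1 and 117 ± 25.3 (2.45-fold, limma adjusted p = 0.00212). Also higher were the crosslinkers Iqgap1 (1.66-fold, a call lost under 5 of 18 alternatives) and Ezr (2.23-fold, lost under 4 of 17), which ties filaments to the membrane, and the turnover factors Gmfg (1.65-fold), which removes Arp2/3 branches, and Capg (1.48-fold, a call lost under 13 of 17 alternatives). Fmnl1, a formin of leukocytes, was 1.75-fold higher, a call lost under 2 of 17 alternatives, and Cyfip2, of the WAVE complex that activates Arp2/3, 1.52-fold higher, a call lost under 9 of 17.

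Of 7 annexins tested beside Anxa3, 3 were higher. Anxa1 averaged 184 ± 39.3 at 24 and 66.4 ± 13.1 at 6 months (2.76-fold, limma adjusted p = 0.000524), Anxa2 176 ± 62.8 and 80.3 ± 4.62 (2.10-fold, limma adjusted p = 0.00874), and Anxa5 195 ± 33.5 and 97.8 ± 17.0 (2.00-fold, limma adjusted p = 0.00696). All 3 also passed for 18 against 6 months, where they were the only 3 of the 107 (2.8%), beside 0.912% of all genes higher. Under 18 alternatives the 18-month call was lost 11 times for Anxa2, 7 times for Anxa5 and 1 time for Anxa1. The counts were 8 (7.48%) for 24 against 11 months, beside 2.6% of all genes, and 1, Cyfip2, for 24 against 18 months, beside 0.88%. At a floor 4 times as high the log2 difference of 24 against 6 months was 0.50 for Anxa1 (limma adjusted p = 0.10) and 0.40 for Anxa2 (limma adjusted p = 0.21), and the Anxa2 call was also lost without the 5 arrays of high GAPDH ratio. Anxa4, Anxa6, Anxa7 and Anxa11 did not pass, with log2 differences of 0.14, -0.13, 0.06 and -0.01.

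The Arp2/3 subunits Actr2, Arpc1a, Arpc3, Arpc4, Arpc5 and Arpc5l had log2 differences of 0.12, 0.07, 0.17, 0.05, 0.20 and 0.00 between 24 and 6 months in F344 rats, with no limma adjusted p under 0.270. The coronins Coro1b, Coro1c and Coro7 had 0.28, -0.22 and 0.33, and the channel relatives Clic2 and Clic4 had 0.50 and 0.21, none past the threshold. Acta2, the smooth muscle actin of stellate cells, had 0.10, and Arhgdig 0.03. None of the 107 passed for 18 against 11 months, where Anxa1 came nearest (log2 difference 1.02, limma adjusted p = 0.0557) and 17 had an unadjusted p under 0.05. The count became 2 without replicate 4 of the 18-month rats and 1 without replicate 1 of that group or replicate 4 of the 11-month rats.

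In Brown Norway controls 0 of 104 listed genes passed limma's adjusted threshold for 24 against 4 months, beside 0.245% of all genes, and 28 had an unadjusted p under 0.05, beside 11.7%. The count became 3 without replicate 2 of the 24-month controls and 1 without replicate 3. The median difference was 0.18, and 81 of 104 lay above 0. Lcp1 had a log2 difference of 1.04 (SE 0.33, limma adjusted p = 0.20) and Tpm4 of 0.84 (SE 0.23, limma adjusted p = 0.122). In dosed rats 0 of 104 passed, 0 had an unadjusted p under 0.05 and the median was 0.00.

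The genes most like the 10 across arrays were found by Pearson's r with their mean standardised log2 signal, over 18 Brown Norway and 16 F344 arrays and 8309 genes, ranked by the lower r of the strains. They were Lgals3, Lcp1, C1qa, Gpnmb, C1qb, Lgmn, Tagln2 and Grn, with lower values of r from 0.93 for Lgals3 to 0.87 for Grn. Arrays share scaling, age and cell content, so r is a description only. The arrays of the 2 contrasts that chose the 10 genes are among them, so genes higher in those contrasts tend to rank high. The listed genes were higher by 0.74 (Tagln2) to 2.82 (Gpnmb) in Brown Norway controls and by 0.54 (Grn) to 1.62 (Gpnmb) in F344 rats. Over Brown Norway arrays the 10 genes were highest on replicate 1 of the 24-month controls, and r without it is not given. Of the 10 genes themselves, Arpc1b followed that mean with r of 0.94 over Brown Norway arrays and 0.88 over F344 arrays, Actg1 with 0.70 over each set, and the joint probe set of Actb with 0.85 and 0.53, the lowest of the 10 in F344 rats. Each gene is itself part of that mean.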

How the data were processed

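Liver RNA of 34 rats was hybridised to Affymetrix rat arrays, and p-values rest on the spread between these samples, 1 animal each as labelled. The authors deposited linear intensity values, which had been brought near a common distribution within each strain, and MAS5 and RMA are named in the submitters' processing notes without version, role or order. An array's median signal lay between 35.6 and 38.3 for Brown Norway and between 44.9 and 47.1 for F344 livers, so strains were analysed apart. Array number limits the precision.

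Of 24946 probe sets, 17584 have a single symbol, 393 several and 6916 none, and 53 are array controls, which were excluded. Where several probe sets carried a gene, the brightest on average in that strain stood for it. The floor was 32, applied ahead of the log2 step. Genes above the floor on 3 or more Brown Norway arrays (8586) or 4 or more F344 arrays (9208) entered the tests. limma 3.58.1 in R 4.3.3 was fitted with a mean per group over all arrays of the strain, with Benjamini-Hochberg adjustment over all genes tested and a threshold of 0.05.

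The 10 genes and all lists were chosen with earlier results of these data known. Genes named beside them are the called genes of smallest p, up to 3 per list and comparison, the relatives of members, the defining cell markers and the 8 genes of highest likeness. Srf was named after its values were seen. The procedure was tested on simulated data. Alternatives were other floors, no low-signal filter, averaging over probe sets, repeated quantile normalization, robust variances with a trend, array weights, the GAPDH ratio as a covariate, dropping arrays of high ratio, fitting only the groups compared, and leaving out single arrays. Per-sample columns not used numbered 0.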

Additional observations from a re-analysis of the deposited data

Results flagged for a closer look

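Coro1a, the leukocyte coronin, had a signal of 235 in replicate 1 of the 24-month F344 rats, against 120.1, 113 and 118 in the other 3, and this gap is large for a group of 4. Of 40 groups of 4 examined, 1 stood out in this way, and chance alone sets apart about 1 in 20. Every 24-month animal lay above every 18-month animal, though the lowest 24-month signal was 113 and the highest 18-month one 111. Leaving out that rat, the highest of its group, could not change this order.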

How the results depend on the processing

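The counts of the 10 genes past the threshold in the 4 Brown Norway comparisons that were tested were 0 under each of the 15 alternatives. For F344 rats of 18 against 11 months the count of 0 became 2 (Arpc1b and Clic1) with array weights, 1 (Arpc1b) with the GAPDH ratio as a covariate and 0 to 1 with an array left out, the 1 being Arpc1b without replicate 4 of the 18-month rats. The median difference of 24 against 4 months in Brown Norway controls, 0.61, ranged from 0.36, without replicate 1 of the 24-month controls, to 0.83 with an array left out, and from 0.55 to 0.76 otherwise. Coro1a reversed to -0.068 without that replicate, and had no value at a floor 4 times as high in either strain. The F344 median for 24 against 6 months, 0.66, ranged from 0.57 to 0.75. Of the other actin genes, the 14 called for 24 against 6 months in F344 rats became 6 at that higher floor, which tests fewer genes, 24 with array weights and 9 to 14 with an array left out. The count of 0 for 18 against 11 months became 5 with array weights, 1 with robust variances or the GAPDH ratio as a covariate, and 0 to 2 with an array left out. The count of 1 for 24 against 18 months (Cyfip2) became 0 with the mean of probe sets, with a floor of 8 or the higher one, with arrays of high GAPDH ratio dropped and with the compared groups alone, 4 with array weights, 2 with the GAPDH ratio as a covariate, and 0 to 2 with an array left out. In Brown Norway controls of 24 against 4 months it was 0 to 3 with an array left out, the 3 without replicate 2 and 1 without replicate 3 of the 24-month controls. Where no reason is given the cause was not tested. No paired analysis was possible because replicate numbers were given in accession order and pair no animals.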
